A study of Mus musculus with 2 samples.

Results

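The YAP-TAZ-TEAD genes described here are 10 of the 32285 genes in the deposited expression matrix, taken by symbol. They are the coactivators Yap1 and Wwtr1 (Wwtr1 encodes TAZ), the DNA-binding factor Tead1, and 7 genes of a 22-gene YAP-TAZ target signature known from human tumours: Ccn1, Myof, Tgfb2, Asap1, F3, Ptpn14 and Rbms3. YAP and TAZ are the output of the Hippo pathway, in which the MST kinases activate the LATS kinases. The LATS kinases phosphorylate YAP and TAZ and keep them in the cytoplasm. When the kinases are quiet, as in cells that spread on a stiff matrix, YAP and TAZ enter the nucleus and switch on genes through TEAD factors, often at sites shared with AP-1. In melanoma the pathway is known for its part in invasion and in mechanical signals, and it acts mostly on the location of the proteins, which RNA levels do not show.

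The cells were B16F10 mouse melanoma cells, a GFP-marked line grown in mice. They came from the bones (knees) of mice without perforin (Prf1-/-), from the lungs of Prf1-/- mice and from the lungs of wild-type (WT) mice. Perforin is the pore-forming protein of killer lymphocytes, and the series' title names mechanical and immune control of where metastases settle. All 3 sources were sorted for GFP+ CD45- DAPI- cells, marked with 1 hashtag antibody each, and pooled into 1 droplet run. Crushed knees were digested for 30 min and lung tumours for 20 min, both at 37 °C, so site and digestion cannot be told apart. The number of mice, and their age, sex and strain, are not given in the sources used here. Each condition is therefore 1 group of barcodes with no replicate, no test was possible, and every ratio below compares these cells only.

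Barcodes with at least 1000 genes and at most 15% mitochondrial UMIs (unique molecular identifiers, 1 per captured RNA molecule) were kept. They numbered 385 in Prf1-/- bone, 1520 in Prf1-/- lung and 1227 in WT lung, with 1299480 UMIs in Prf1-/- bone, 4726709 in Prf1-/- lung and 3865546 in WT lung. A further 6270 passing barcodes, 65.0% of all 9644, were absent from the hashtag matrix. These unlisted barcodes had 16458141 UMIs and no known source. Another 242 barcodes had no hashtag at 2 times the next and entered only the listed total of 3374 barcodes. The expression and hashtag matrices shared 4204 barcodes before the filter. All 7 melanoma markers were present in each group, with summed levels of 9592 UMIs per 1000000 (CPM) in Prf1-/- bone, 12744 in Prf1-/- lung and 12462 in WT lung.

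The members' levels were low but measurable in every group. Their sum was 332 CPM in Prf1-/- bone (95% interval 302 to 365), 343 in Prf1-/- lung (327 to 360), 331 in WT lung (313 to 350) and 332 in the unlisted barcodes (323 to 341). These 4 intervals overlap. Intervals here are exact Poisson intervals for levels and exact binomial intervals for ratios and shares, and they cover counting error only, not the spread between mice or cells. The chemistry reads the 3' end of each RNA once, without per-length scaling, so the levels of different genes are not ranked against each other.

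**Figure D1:**
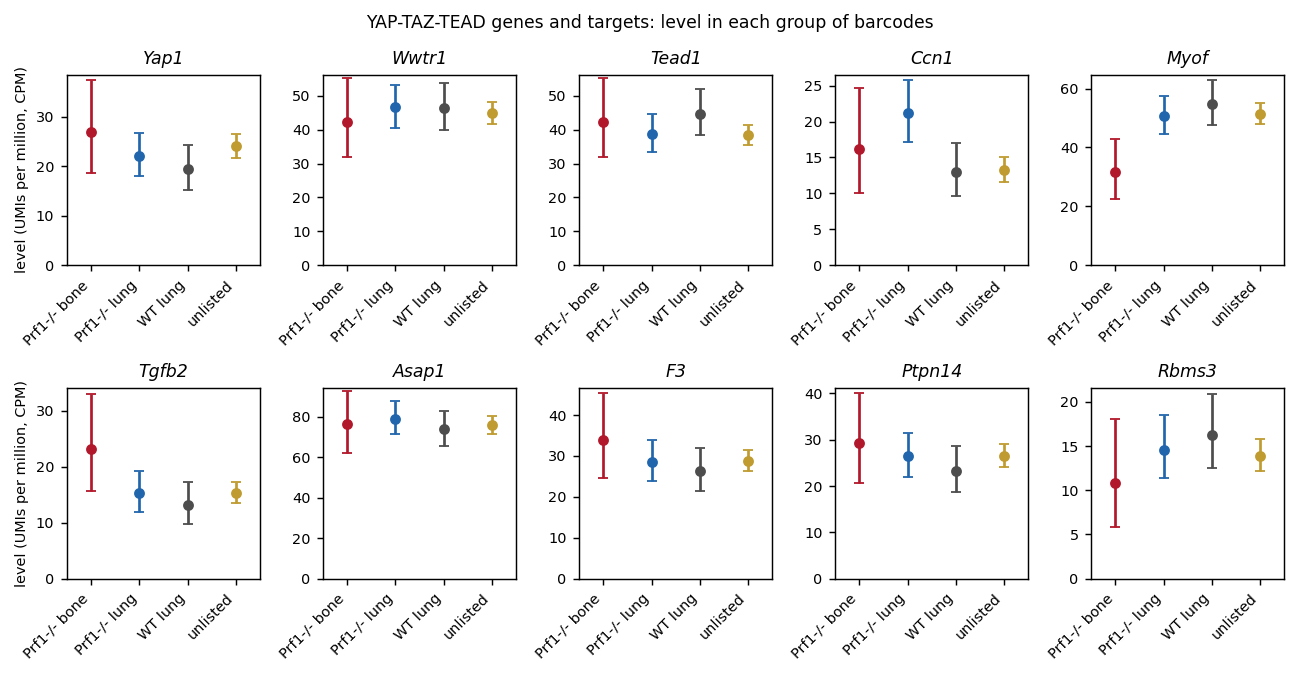
Level of each member in CPM (y axis, from 0) in the 4 groups of barcodes. Points are sums over all cells of a group and bars are 95% Poisson intervals. Myof is lowest in Prf1-/- bone at 31.6 CPM, Ccn1 is highest in Prf1-/- lung at 21.2 CPM, and most other intervals overlap.

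The coactivators and Tead1 differed little by site or host. Yap1 (chr9:7931999-8004638, GRCm38) had 26.9 CPM in Prf1-/- bone (18.8 to 37.5), 22.003 in Prf1-/- lung (18.0 to 26.7) and 19.4 in WT lung (15.3 to 24.3). Wwtr1 (chr3:57455644-57575910) had 42.3 CPM in Prf1-/- bone (31.9 to 55.1), 46.5 in Prf1-/- lung (40.6 to 53.1) and 46.3 in WT lung (39.8 to 53.6). Tead1 (chr7:112679356-112906784) had 42.3 CPM in Prf1-/- bone (31.9 to 55.1), 38.7 in Prf1-/- lung (33.3 to 44.8) and 44.8 in WT lung (38.3 to 51.9). All of these intervals overlap between groups for each gene. The widest of these contrasts was Yap1 in Prf1-/- bone over WT lung, at 1.39 times (0.902 to 2.10). Wwtr1 in Prf1-/- lung over WT lung stood at 1.01 times, with an interval of 0.821 to 1.23 that lies wholly inside 1.5-fold either way.

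The start regions of both coactivators hold the TEAD core letters GGAATG, shown here because TEAD factors, through which YAP and TAZ act, bind them. The search covered GGAATG on both strands (CATTCC on the other) in RefSeq promoters of GRCm38.p6, from 250 bases before to 50 after each start, and 14.7% of all 32851 such promoters hold it. Of the members, 8 have a promoter in that table and Tead1 and Asap1 have none. The letters were found in 4 of the 8: Yap1, Wwtr1, Ccn1 and Ptpn14. A match describes these letters only, and no match says only that they are not in this window. The motif is in capitals with 12 bases on each side, 5' to 3' on the gene's strand; the first lies at chr9:8004720-8004749 on the minus strand, the next at chr3:57576029-57576058 on the minus strand, and the last at chr1:189728110-189728139 on the plus strand.
Yap1: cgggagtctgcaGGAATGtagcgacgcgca
Wwtr1: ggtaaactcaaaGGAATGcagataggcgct
Ptpn14: cctccccggacgCATTCCtggcccgcccag
The match begins 141 bases before the start in Yap1, 136 in Wwtr1 and 146 in Ptpn14. Wwtr1 has a second promoter entry that holds the same match 170 bases before its start. The AP-1 letters TGANTCA, which read the same on both strands, were found only in F3 among the members with a promoter, at 146 and 135 bases before its start. They are in 7.81% of all promoters. F3 has no GGAATG match in this window, so an overlap of the motifs could not occur there.

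The perforin comparison asks whether melanoma cells in Prf1-/- lungs differ from those in WT lungs. Ccn1 was the only member past 1.5-fold either way, 1 of 10, against 1.82% of the 7748 genes with a mean of at least 10 CPM (0.71% higher and 1.11% lower). Ccn1 (chr3:145646971-145649985) encodes a secreted matrix-associated protein (also called CYR61) and is a classical YAP-TEAD target. It had 21.2 CPM in Prf1-/- lung (100 UMIs, 17.2 to 25.7) and 12.9 in WT lung (50 UMIs, 9.60 to 17.1), a ratio of 1.64 (1.15 to 2.35). Prf1-/- bone stood between them at 16.2 CPM (21 UMIs, 10.0 to 24.7). The share of 1 in 10 is above the background through this gene alone. The members' median log2 ratio was 0.11 and that of all 7748 genes 0.00.

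The Ccn1 promoter is printed as the member with the clearest difference between lungs. It lies at chr3:145649936-145650235 on the minus strand of GRCm38.p6, and its capitals mark the TEAD core, read here as CATTCC, 103 bases before the start.
Ccn1: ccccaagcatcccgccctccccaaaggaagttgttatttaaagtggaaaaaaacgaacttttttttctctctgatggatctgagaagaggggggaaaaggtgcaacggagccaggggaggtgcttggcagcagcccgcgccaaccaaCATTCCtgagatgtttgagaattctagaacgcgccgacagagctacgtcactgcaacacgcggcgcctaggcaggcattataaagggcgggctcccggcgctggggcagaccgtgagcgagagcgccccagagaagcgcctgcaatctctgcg

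Among cells with at least 1000 genes no other member was past 1.5-fold between the lungs. Ccn2, the best-known sister gene of Ccn1 and also a YAP-TEAD target, had 5 UMIs in Prf1-/- lung and 4 in WT lung, or 1.06 CPM in Prf1-/- lung and 1.03 in WT lung, too few to judge. The remaining 9 members lay between 0.865 times (Tead1) and 1.15 times (Tgfb2), and each of their intervals held 1. Immediate-early genes, which like Ccn1 answer quickly to stress and tissue digestion, summed to 2130 CPM in Prf1-/- lung and 2039 in WT lung, with none of the 10 at a mean of 10 CPM or more past 1.5-fold. Jun, an AP-1 subunit gene, stood at 1.23 times (1.16 to 1.30) in Prf1-/- lung over WT lung, and Fosl2, under that minimum, at 1.83 times (1.07 to 3.22). Ier2 went the other way, at 0.899 times (0.821 to 0.986). Of the 10 measured genes 6 stood above 1 and 4 below, with a median log2 ratio of 0.015. Lung epithelial markers went with the groups, at 13.5 CPM in Prf1-/- lung and 204 in WT lung, mostly Sftpc (9.94 in Prf1-/- lung and 168 in WT lung), with Epcam at 0 in both. Without barcodes that carried 2 or more UMIs of other cell types the Ccn1 ratio was 1.63. That filter kept 1516 of 1520 Prf1-/- lung and 1219 of 1227 WT lung cells, so it could hardly move the ratio. It also left in place cells with a single such UMI, and the part of epithelial RNA in the Ccn1 ratio was not tested.

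The Ccn1 difference did not hold in every setting. It was 0.925 among the 145 Prf1-/- lung and 126 WT lung cells with at least 2000 genes and at most 10% mitochondrial UMIs. Rbms3 was the 1 member past 1.5-fold under that filter, at 0.449, against 0.896 over all passing cells. Under the other settings the Ccn1 ratio lay between 1.51 and 1.67. Within the 5 clusters of at least 400 cells it ranged from 0.764 in the histone-gene cluster 2 (0.366 to 1.59) to 5.48 in the interferon-gene cluster 5, where it rests on 10 UMIs in Prf1-/- lung and 3 in WT lung (1.41 to 31.0). The best measured of the higher ratios was in cluster 4, led by App and Nrp2, with 25.5 CPM in Prf1-/- lung (39 UMIs) and 8.25 in WT lung (9 UMIs), a ratio of 3.10 (1.48 to 7.27). Clusters were drawn without the members and without the pathway lists. The point ratio was also above 1 in clusters 0 and 1, at 1.41 and 2.01 with intervals that hold 1, and whether the clusters differ from each other was not tested.

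**Figure D2:**
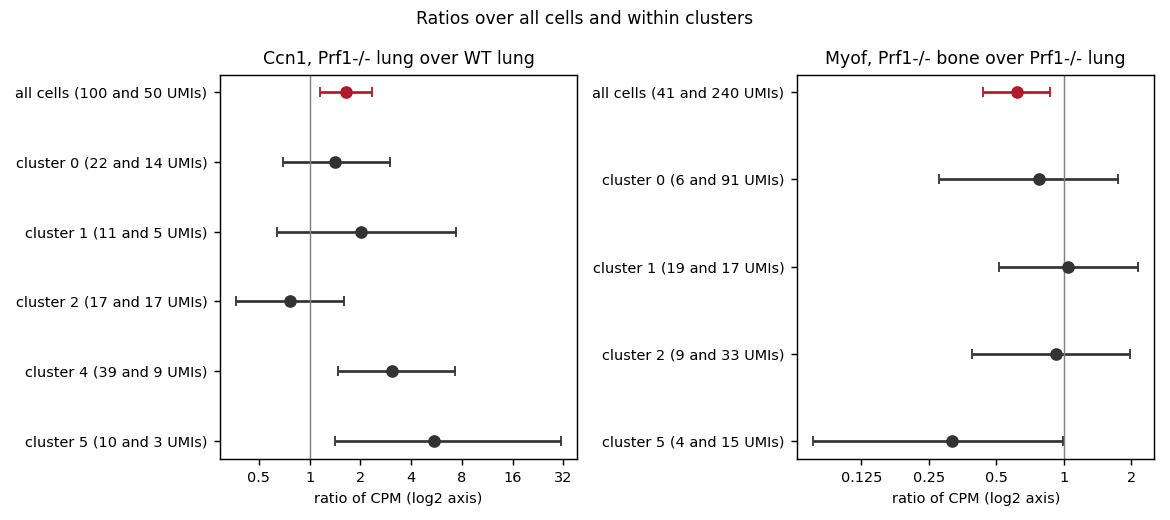
Ratio of CPM with its 95% interval (log2 axis) over all cells and within clusters, for Ccn1 in Prf1-/- lung over WT lung (left) and Myof in Prf1-/- bone over Prf1-/- lung (right). UMIs are given for the first and second group of each ratio. The Ccn1 ratio is 3.10 in cluster 4 and 0.764 in cluster 2, while the Myof ratio is 0.621 over all cells and 1.05 in cluster 1.

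The site comparison sets Prf1-/- bone against Prf1-/- lung, which share the host genotype. Past 1.5-fold were 2 of 10 members, Myof lower and Tgfb2 higher in bone, against 11.2% of 7695 genes, of which 3.81% were higher and 7.39% lower. The count is 1 gene above what that share would give for 10 genes, so it is close to the background. The members' median log2 ratio was 0.04 and that of all genes -0.03. Set against WT lung, which shares neither site nor genotype, bone had 3 of 10 members past 1.5-fold (Myof, Tgfb2 and Rbms3) against 11.8% of 7707 genes (3.79% higher and 8.04% lower). Both comparisons use the same bone cells, so the second is no independent repeat of the first.

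Myof was the member with the firmest site difference. Myof (chr19:37899036-38043577) encodes myoferlin, a ferlin-family membrane protein used in membrane repair and vesicle fusion. It had 31.6 CPM in Prf1-/- bone (41 UMIs, 22.6 to 42.8), 50.8 in Prf1-/- lung (240 UMIs, 44.6 to 57.6) and 54.8 in WT lung (212 UMIs, 47.7 to 62.7). The bone interval lies below both lung intervals without overlap, and the 2 lungs overlap. The ratio was 0.621 in Prf1-/- bone over Prf1-/- lung (0.435 to 0.868) and 0.575 over WT lung (0.401 to 0.807). Over all settings tried it stayed between 0.497 and 0.638 for the first and between 0.475 and 0.660 for the second.
The Myof promoter, shown as the counterpart of Ccn1 because it holds neither motif, lies at chr19:38043528-38043827 on the minus strand.
Myof: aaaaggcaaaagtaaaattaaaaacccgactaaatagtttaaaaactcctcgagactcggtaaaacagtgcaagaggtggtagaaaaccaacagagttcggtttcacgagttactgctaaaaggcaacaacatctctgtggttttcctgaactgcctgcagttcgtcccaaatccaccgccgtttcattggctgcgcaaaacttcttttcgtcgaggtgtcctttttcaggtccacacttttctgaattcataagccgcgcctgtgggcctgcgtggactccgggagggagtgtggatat

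The groups also differed in their make-up by cluster, and Myof differed between clusters. Over all 9644 cells Myof was 83.3 CPM (76.2 to 90.9) in cluster 0, led by Lgals3 and Lgals7, and 34.3 CPM (29.9 to 39.2) in cluster 1, led by Cck and Ccnb2. Cluster 0 held 30 of 385 bone cells, 409 of 1520 Prf1-/- lung cells and 357 of 1227 WT lung cells. Cluster 1 held 212 of the bone cells, 200 of the Prf1-/- lung cells and 181 of the WT lung cells. Bone cells thus lay mostly in the cluster where Myof was lowest. Within cluster 1 Myof stood at 29.1 CPM in Prf1-/- bone and 27.8 in Prf1-/- lung, a ratio of 1.05 (0.516 to 2.15), and within cluster 2 the ratio was 0.928 (0.390 to 1.98). It was 0.774 in cluster 0 on 6 bone UMIs (0.277 to 1.75), 0.316 in cluster 5 on 4 bone UMIs (0.0764 to 0.993) and 0.480 in cluster 4 on 1 bone UMI (0.0120 to 2.75). Set against WT lung the ratio was below 1 in all 5 large clusters: 0.737 in cluster 0, 0.678 in cluster 1, 0.779 in cluster 2, 0.538 in cluster 4 and 0.459 in cluster 5. Each of those 5 intervals held 1. How much of the site difference the clusters account for was not tested.

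Tgfb2 and Rbms3 rest on fewer molecules. Tgfb2 (chr1:186622787-186709697) encodes a secreted transforming growth factor beta, a ligand that can itself drive invasion. It had 23.1 CPM in Prf1-/- bone (30 UMIs, 15.6 to 33.0), 15.2 in Prf1-/- lung (72 UMIs, 11.9 to 19.2) and 13.2 in WT lung (51 UMIs, 9.82 to 17.3). Bone was the highest group, its interval overlapping both lungs. The ratio was 1.52 in Prf1-/- bone over Prf1-/- lung, with an interval that holds 1 (0.955 to 2.35), and 1.75 over WT lung (1.08 to 2.80). It was below 1 among the 47 bone cells with at least 2000 genes, at 0.486 in Prf1-/- bone over Prf1-/- lung and 0.545 over WT lung. In cluster 1, where most bone cells lay, Tgfb2 had 18 UMIs in Prf1-/- bone and 11 in Prf1-/- lung, a ratio of 1.53 (0.686 to 3.59). There it had 5 UMIs in WT lung, a ratio of 3.08 in Prf1-/- bone over WT lung (1.10 to 10.6).
The Tgfb2 promoter, shown as that of the 1 member higher in bone past 1.5-fold, holds neither motif. It lies at chr1:186705940-186706239 on the minus strand, inside the gene span given above. The outer 5' end of that span was not searched.
Tgfb2: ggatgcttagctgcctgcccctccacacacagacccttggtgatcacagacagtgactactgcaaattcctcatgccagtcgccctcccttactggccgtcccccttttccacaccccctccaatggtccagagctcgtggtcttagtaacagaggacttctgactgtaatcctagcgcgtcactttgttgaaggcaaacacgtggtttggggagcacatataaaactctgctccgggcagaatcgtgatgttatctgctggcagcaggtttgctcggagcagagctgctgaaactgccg

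Rbms3 (chr9:116572746-117629913), an RNA-binding protein gene, had 10.8 CPM in Prf1-/- bone (14 UMIs, 5.89 to 18.1), 14.6 in Prf1-/- lung (69 UMIs, 11.4 to 18.5) and 16.3 in WT lung (63 UMIs, 12.5 to 20.9). Its ratio of 0.661 in Prf1-/- bone over WT lung has an interval that holds 1 (0.342 to 1.19). Under 4 other settings, 2 of them other scalings, it was inside 1.5-fold, between 0.668 and 0.703. With cells thinned to 1500 UMIs it was lowest, at 0.398. In Prf1-/- bone over Prf1-/- lung the ratio was 0.738 (0.384 to 1.32), and it ran from 0.493 to 1.46 over all settings. Rbms3 in bone is the thinnest value of any member, and its bone ratios span 3.45-fold and 3.49-fold from the low to the high end of their intervals.

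Asap1, F3 and Ptpn14 were inside 1.5-fold in every comparison of groups over all passing cells. Asap1 (chr15:64086840-64382941), an Arf GTPase-activating protein of focal adhesions, had 76.2 CPM in Prf1-/- bone (61.9 to 92.8), 79.1 in Prf1-/- lung (71.3 to 87.6) and 74.0 in WT lung (65.7 to 83.1). With the most UMIs of the members, 2073 over all cells, it also had the narrowest ratios, 0.963 in Prf1-/- bone over Prf1-/- lung (0.764 to 1.20) and 1.07 in Prf1-/- lung over WT lung (0.914 to 1.25). Both intervals lie inside 1.5-fold either way. F3 (chr3:121723537-121735052) encodes tissue factor, which starts blood clotting, and had 33.9 CPM in Prf1-/- bone (24.6 to 45.5), 28.6 in Prf1-/- lung (23.9 to 33.8) and 26.4 in WT lung (21.5 to 32.0). Its ratio in Prf1-/- bone over WT lung was 1.28 (0.880 to 1.84), and 1.82 with cells thinned to 1500 UMIs. Ptpn14 (chr1:189728216-189876695), a phosphatase that binds YAP and restrains it, had 29.2 CPM in Prf1-/- bone (20.7 to 40.1), 26.4 in Prf1-/- lung (22.01 to 31.5) and 23.3 in WT lung (18.7 to 28.6). For F3 and Ptpn14 the order of the 3 groups was bone, Prf1-/- lung, WT lung, with all neighbours overlapping.

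**Figure D3:**
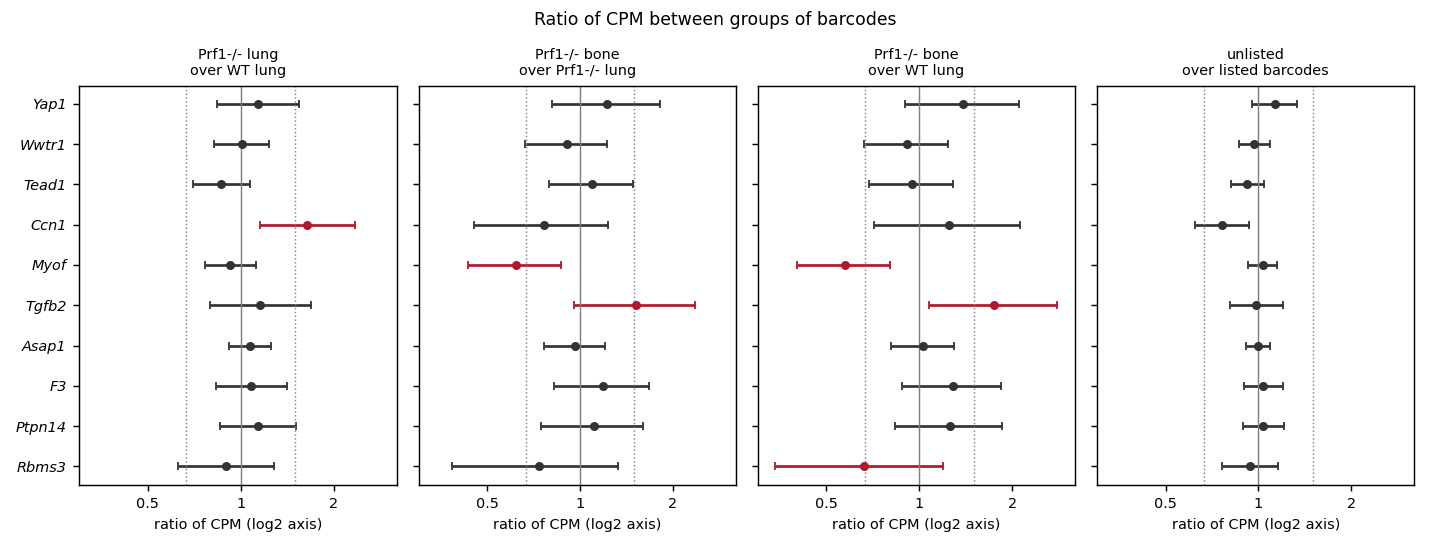
Ratio of CPM of each member in the 4 comparisons (log2 axis) with 95% intervals; dotted lines mark 1.5-fold either way and red points lie past it. Red are Ccn1 at 1.64 between the lungs, Myof at 0.621 and Tgfb2 at 1.52 in bone over Prf1-/- lung, and Myof, Tgfb2 and Rbms3 in bone over WT lung.

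Barcodes that the hashtag matrix does not list held most of the molecules. None of the 10 members was past 1.5-fold in unlisted over listed barcodes, against 0.271% of 7736 genes (0.0776% higher and 0.194% lower), and the members' median log2 ratio was -0.01. The lowest was Ccn1, at 13.2 CPM in unlisted barcodes (218 UMIs) and 17.4 in listed ones (189 UMIs), a ratio of 0.762 (0.624 to 0.930). Among cells with at least 2000 genes and at most 10% mitochondrial UMIs it was 0.413, at a mean level under 10 CPM. The rest lay between 0.921 (Tead1) and 1.13 (Yap1). In the unlisted barcodes Myof stood at 51.3 CPM (47.9 to 54.9) and Tgfb2 at 15.3 (13.5 to 17.3), levels nearer to those of the lungs than to bone. Unlisted cells had a median of 2418 UMIs and listed cells 2931, and the part of depth in the Ccn1 ratio was not tested.

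By the rule used here, a gene is too low to judge in a comparison when the interval of its ratio holds both 1.5-fold up and 1.5-fold down. No member met it in any of the 4 comparisons. Whether a gene meets this rule depends on how near its ratio lies to 1 as well as on its UMIs. In bone over Prf1-/- lung Fat1 met it on 28 and 102 UMIs, while Rbms3, on 14 and 69 UMIs, did not. Not meeting the rule therefore does not show that a member is well measured. The intervals of the members' ratios spanned 1.37-fold to 2.12-fold between the lungs and 1.58-fold to 3.45-fold in bone over Prf1-/- lung. These widths run from the low to the high end of an interval, so the reach from the ratio to either end is less. A difference within that reach could be missed, so an interval that holds 1 does not show that levels are alike. In single cells, however, every member was too sparse to call. Across the 9644 cells a UMI was seen in 3.78% of cells for Ccn1, 3.92% for Rbms3 and 4.11% for Tgfb2, and in at most 18.9%, for Asap1. No cell held more than 4 UMIs of any member.

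Cells with a UMI were about as many as an even spread of each gene's UMIs over cells by depth would give. The number seen over the number so computed was 0.918 for Ccn1 and 0.958 for Myof, the lowest of the members, and 0.997 for Wwtr1, the highest. At so few UMIs a cell this number can stay near 1 even for a gene limited to part of the cells, so it does not show an even spread. By it Ccn1 and Myof were the least evenly spread. Ccn1 had 2 or more UMIs in 38 cells, on 407 UMIs in all, and Rbms3 in 9 cells, on 390 UMIs. With each cell thinned to 1500 UMIs (7 of 9644 cells were shallower and left out), Myof was seen in 4.42% of Prf1-/- bone cells, 7.57% of Prf1-/- lung cells and 8.72% of WT lung cells, and unthinned in 10.1% of Prf1-/- bone cells, 13.6% of Prf1-/- lung cells and 15.4% of WT lung cells. Bone had the lowest share either way. Ccn1 was seen in 2.60% of thinned Prf1-/- bone cells, 2.70% of Prf1-/- lung cells and 1.87% of WT lung cells, and unthinned in 4.94% of Prf1-/- bone cells, 5.59% of Prf1-/- lung cells and 3.75% of WT lung cells. Thinned cells with none of the 10 members made up 62.6% of Prf1-/- bone, 59.3% of Prf1-/- lung and 60.0% of WT lung cells. The 79 barcodes of any depth with at least 5 epithelial marker UMIs were no clean background, since their melanoma markers stood at 3643 CPM. Myof was seen in 5.06% of them at a median of 580 UMIs. Its level there was 130 CPM, on 8 UMIs, against 50.7 CPM over all passing cells. The 10 members summed to 518 CPM there, on 32 UMIs, and to 334 CPM over all passing cells. Ccn1, Tgfb2 and Ptpn14 had no UMI in these barcodes, of which 6 passed the cell filter. In the 15 barcodes with at least 5 blood marker UMIs (Lyz2, Cd68 and Cd79a not counted) the members summed to 227 CPM, on 5 UMIs. Their melanoma markers stood at 7903 CPM, so they too were no clean background.

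Some members varied between clusters of melanoma cells and others hardly did. Over the 5 clusters with at least 400 cells, Myof had the widest range, 2.43-fold, and Tead1 the narrowest, 1.18-fold. Wwtr1 had 58.7 CPM (52.7 to 65.1) in cluster 0 and 32.2 (28.0 to 36.9) in cluster 4, and Tgfb2 had 22.1 (18.6 to 26.2) in cluster 0 and 11.5 (9.04 to 14.4) in cluster 4. Yap1, Wwtr1, Myof, Tgfb2, Asap1, Ptpn14 and Rbms3 had their highest level in cluster 0. Of these only Myof had an interval there that lay above those of all the other large clusters. Rbms3, for one, had 16.2 CPM (13.1 to 19.7) in cluster 0 and 15.6 (12.7 to 19.0) in cluster 4. The share of all genes that are highest in cluster 0 was not counted. Ccn1 went another way, lowest in cluster 1 at 10.9 CPM (8.47 to 13.8) and highest in the interferon-gene cluster 5 at 21.7 (14.6 to 31.2). F3 also had its highest level in cluster 5, at 33.0 CPM, and its lowest in cluster 0, at 24.5. All 5 clusters carried the melanoma markers, and none had a marker of another type among its 25 leading genes. These are descriptions of clusters of the same cells, with no test.

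**Figure D4:**
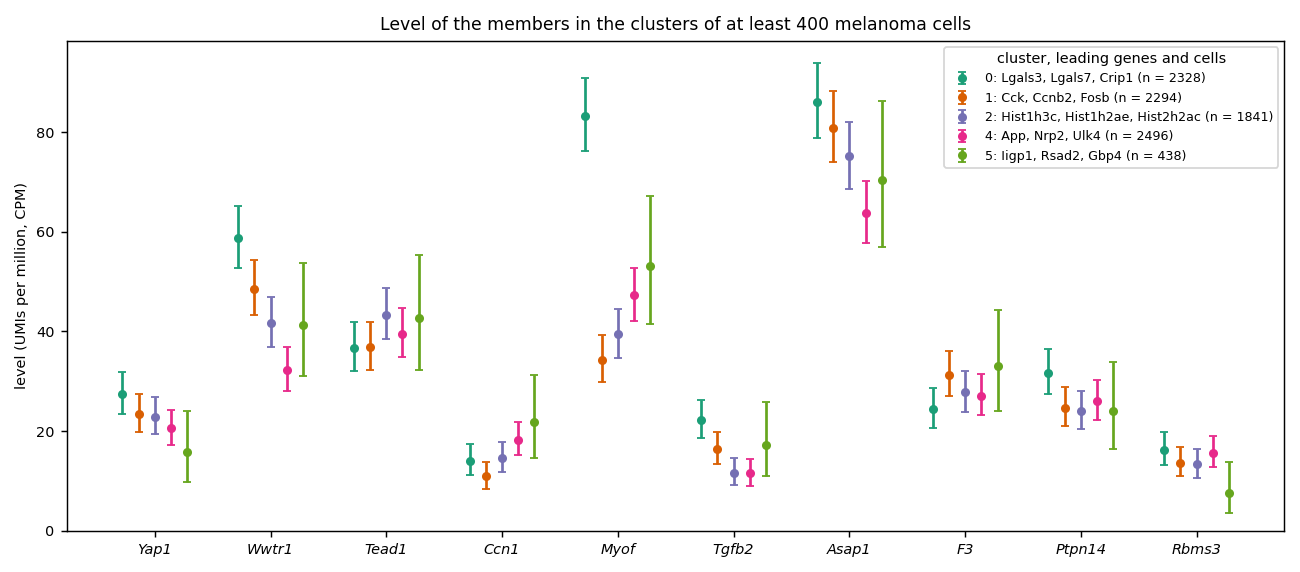
Level of each member in CPM (y axis, from 0) in the 5 clusters with at least 400 cells, named by number and leading genes; bars are 95% Poisson intervals over all cells of a cluster. Myof stands at 83.3 CPM in cluster 0 and 34.3 in cluster 1, while Tead1 lies between 36.7 and 43.4 in all 5.

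The other genes of the pathway showed a short list of partners at measurable levels. Among the 10 coactivators, TEADs and cofactors, 6 reached a mean of 10 CPM and Vgll1 and Vgll2 had no UMI. Tead2, a TEAD factor of embryonic tissue, had 20.8 CPM in Prf1-/- bone, 18.4 in Prf1-/- lung and 12.2 in WT lung, a ratio of 1.51 in Prf1-/- lung over WT lung (1.05 to 2.21) and 1.71 in Prf1-/- bone over WT lung (1.02 to 2.80). Tead3 and Tead4 had at most 3.28 CPM in each of the 4 groups and were too low to judge between the hashtag groups. Vgll4, which competes with YAP for TEADs, had 97.0 CPM in Prf1-/- bone, 124 in Prf1-/- lung and 111 in WT lung, and Vgll3, a cofactor of TEADs, had 43.9 in Prf1-/- bone, 42.5 in Prf1-/- lung and 46.3 in WT lung. Tead2 was the 1 of 6 past 1.5-fold in each comparison with WT lung, against 1.82% of all measured genes between the lungs and 11.8% in bone over WT lung.

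Of the 25 Hippo kinases and upstream genes, 20 were measured between the lungs and none was past 1.5-fold. In Prf1-/- bone over Prf1-/- lung 2 of 21 were higher and 2 lower, against 3.81% of all measured genes higher and 7.39% lower. The higher ones were Ajuba, a LIM protein that restrains LATS, at 13.9 CPM in Prf1-/- bone and 6.98 in Prf1-/- lung (1.98 times, 1.05 to 3.63), and Sav1, the scaffold of the MST kinases, at 26.9 CPM in Prf1-/- bone and 17.6 in Prf1-/- lung (1.53 times, 1.00 to 2.30). The lower ones were Mob1b, a LATS activator, at 16.9 CPM in Prf1-/- bone and 27.1 in Prf1-/- lung (0.625 times, 0.379 to 0.988), and the kinase gene Taok2, at 9.23 CPM in Prf1-/- bone and 16.1 in Prf1-/- lung (0.574 times, 0.284 to 1.06). Set against WT lung, bone had 2 of 21 higher (Ajuba and Wwc1, at 1.62 and 1.59 times with intervals that hold 1) and 1 lower (Mob1b, at 0.600 times), against 3.79% of all measured genes higher and 8.04% lower. The core kinase genes Stk3, Stk4, Lats1 and Lats2 were inside 1.5-fold in all of these comparisons. The median log2 ratio of the list was 0.04 in bone over Prf1-/- lung and 0.06 between the lungs.

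Outside the members, the 22-gene target signature was mostly low in these cells. Of its 15 other genes, 10 were under 10 CPM in each of the 4 groups and 5 had no UMI there: Ankrd1, Igfbp3, Foxf2, Arhgef17 and Nuak2. Ccn2 had 0.770 CPM in Prf1-/- bone (1 UMI), 1.06 in Prf1-/- lung and 1.03 in WT lung, and Axl, a receptor tyrosine kinase gene, had 6.93 in Prf1-/- bone, 2.12 in Prf1-/- lung and 4.66 in WT lung. Crim1, Lats2, Gadd45a, Ccdc80 and Dock5 reached 10 CPM in a group, and Crim1 had 22.3 CPM in Prf1-/- bone, 23.3 in Prf1-/- lung and 19.4 in WT lung. In Prf1-/- bone over Prf1-/- lung Axl stood at 3.27 times (9 and 10 UMIs, 1.18 to 8.96) and Dock5 at 0.285 times (4 and 51 UMIs, 0.0749 to 0.776). Ccdc80 stood at 0.533 times in Prf1-/- lung over WT lung (30 and 46 UMIs, 0.325 to 0.863). The mean was under 10 CPM in each of these cases. By the same rule as for the members, 8 of the 22 were too low to judge between the lungs and 11 in bone over Prf1-/- lung. The UMIs of the signature thus lay mainly in the 7 members. Members were chosen with earlier results of these data known, so this is no separate finding about the other genes. Crim1, outside the members, had 583 UMIs over all cells, more than Ccn1 (407), Tgfb2 (421) and Rbms3 (390).

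**Figure D5:**
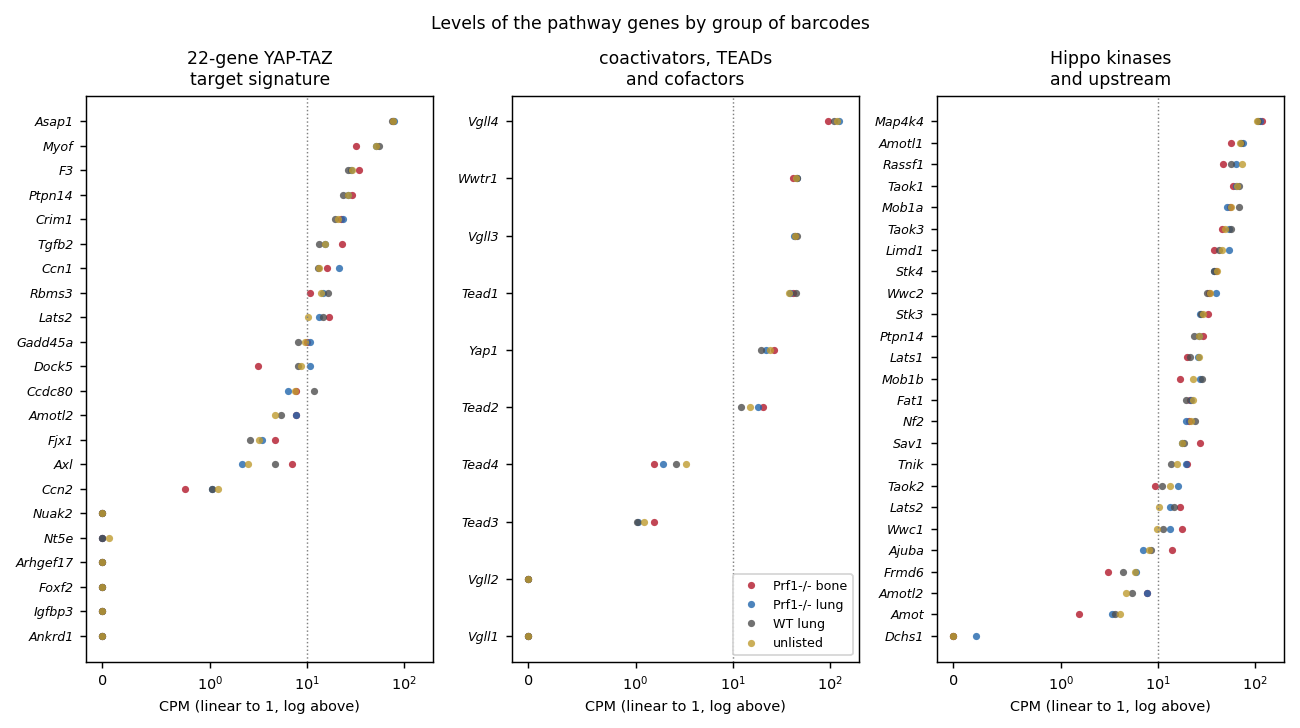
Level of each gene in CPM (x axis, linear to 1 and logarithmic above, dotted line at 10) by group of barcodes for the target signature (left), the coactivators, TEADs and cofactors (middle) and the Hippo kinases and upstream genes (right). Points at 0 are genes with no UMI in that group, such as Ankrd1 and Vgll1.

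Other lists are given beside the bone values, where 3.81% of all measured genes were higher and 7.39% lower in Prf1-/- bone over Prf1-/- lung. Of 8 measured actin and SRF-linked genes 2 were lower in Prf1-/- bone over Prf1-/- lung, Tagln2 at 0.548 times (0.472 to 0.635) and Cnn2 at 0.546 (0.366 to 0.789), while 4 stood above 1 and 4 below and the list's median log2 ratio was -0.04. Of 10 measured immediate-early genes 1 was higher, Fosb at 5.84 times, and 5 were lower, among them Egr1 at 0.259 times and Atf3 at 0.403, while their sum was 2295 CPM in Prf1-/- bone and 2130 in Prf1-/- lung. Of the 12 cell cycle genes 1 was past 1.5-fold, Hmgb2 at 1.504 times, and they summed to 1602 CPM in Prf1-/- bone and 1386 in Prf1-/- lung. Epithelial markers were at 19.2 CPM in Prf1-/- bone and 13.5 in Prf1-/- lung. Blood cell markers were at 10.0 CPM in Prf1-/- bone and 5.92 in Prf1-/- lung, with Cd3e and Nkg7 at 0. The part of any of these in the members' values was not tested.

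Genes whose pattern over the 4 groups was most like the members' sum were looked for among 5696 genes of at least 20 CPM, by the Euclidean distance of centred log2 levels. The nearest were Foxp1, Mpv17l2 and Kmt2a, at distances of 0.00610, 0.00936 and 0.0106 on the log2 scale. All are nearly flat, as the sum is, and over 4 groups this is a description only.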

How the data were processed

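The authors deposited UMI counts, as whole numbers, for genes and for the 3 hashtags of called barcodes. Cell Ranger 6.1.2 and Seurat 4.3.0 are named in the submitters' processing notes with the mm10 build, and a file header gives Cell Ranger 6.0.0. A cell metadata table was not used here, and groups come from the hashtag counts: a barcode took the source whose hashtag count was at least 2 times the next. That leaves doublets within a source and among unlisted barcodes in place, and no doublet caller was run.

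Counts were summed per group and scaled to CPM. With 1 group per condition no p-value or fitted model was possible. Genes averaging 10 CPM or more entered the counts past 1.5-fold and the medians. A count of 3 UMIs equals 2.31 CPM in Prf1-/- bone, 0.635 in Prf1-/- lung and 0.776 in WT lung. Clusters came from scanpy 1.11.5 (Leiden at resolution 0.5, 15 neighbours, 30 components, 2000 variable genes). Alternatives used HTODemux of Seurat 5.3.0 and TMM factors of edgeR 4.0.16 (R 4.3.3). The ratio step was tested on simulated counts. All 10 members are named, and other genes come from pathway and marker lists. Members and lists were chosen with earlier results of these data known. Coordinates and promoters are RefSeq's on GRCm38.p6, and mm10 is another name for GRCm38.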

Additional observations from a re-analysis of the deposited data

How the results depend on the processing

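Results were recomputed with other hashtag calls, cell filters, scalings, cell weights, thinning and without single cells. Counts of members past 1.5-fold were within 1.5 times the main count in 44 of 47 recomputations, medians moved little in 43 of 47, and members' ratios in 414 of 430; 13 ratios moved and 3 reversed. With at least 2000 genes and at most 10% mitochondrial UMIs, which left 47 Prf1-/- bone, 145 Prf1-/- lung and 126 WT lung cells, Ccn1 in Prf1-/- lung over WT lung was 0.925 and Rbms3 0.449, so the count stayed at 1 with a different gene. Under the same filter Tgfb2 was 0.486 in Prf1-/- bone over Prf1-/- lung and 0.545 over WT lung, the members' median log2 ratio was -0.17 in Prf1-/- bone over WT lung, and unlisted over listed barcodes (148 and 393 cells) had 1 member past 1.5-fold (Rbms3 at 0.608; Ccn1, at 0.413, was under 10 CPM) and a median of -0.15. These filters leave few cells, and the cause was not tested further. In Prf1-/- bone over Prf1-/- lung 1 member was past 1.5-fold under the looser filter (at least 500 genes, at most 25% mitochondrial UMIs) and 1 without the top cell of each group, in both cases because Tgfb2 came to 1.42 and 1.43. Rbms3 joined Myof and Tgfb2 past 1.5-fold in that comparison with cells thinned to 1500 UMIs (0.493) and with the largest hashtag at least 3 times the second (0.645). Thinned to 1500 UMIs a cell, the median was -0.17 in Prf1-/- bone over Prf1-/- lung and 0.011 in Prf1-/- bone over WT lung. TMM scaling shifted ratios by at most 0.014 on the log2 scale. Restricting to clusters with melanoma markers kept every barcode, so it could not move any value. Dropping the minimum of 10 CPM could not change the members' counts, since all 10 reached it in every comparison. Leaving out barcodes with 2 or more UMIs of other types, and ambiguous hashtags, was chosen after seeing the data, and Ramp2, Lyz2, Cd68, Cd79a, Dcn and Runx2 were not counted as markers there. No paired analysis was possible because each condition is 1 hashtag group of 1 pooled run with no replicate number, and for the same reason no replicate could be left out. Bone values rest on 385 cells.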
